A study of Homo sapiens with 48 samples.

Results

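SW480 cells carrying an induced shRNA against EIF2B1 were compared with SW480 cells carrying an induced shRNA against EIF2B4, another subunit of the same protein complex. All libraries of these lines made with doxycycline (DOX) were taken, 8 of ribosome-protected fragments (RPFs) and 8 of total cytoplasmic RNA, which is 16 of the 48 libraries of the series. SW480 is an established human colorectal adenocarcinoma line with mutant APC. Each line is a pool of cells selected for a lentiviral LT3-GEPIR vector with 1 hairpin, shEIF2B1 or shEIF2B4, and the control line, shCTRL, carries a non-targeting hairpin. Induced cells had 1 µg/ml DOX for 5 days and uninduced cells had DMSO, in 4 replicates run in separate weeks, and every lysate gave 1 RPF and 1 total RNA library. Differences are given as shEIF2B1 minus shEIF2B4, so they compare end states and hold whatever set the lines apart before induction. The same difference was fitted in the 16 uninduced libraries of both lines, and for genes described in total RNA it is given wherever it passed the test without DOX.

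The eIF2B complex exchanges GDP for GTP on eIF2, the factor that brings the initiator tRNA to the ribosome. EIF2B1 encodes eIF2Bα and EIF2B4 encodes eIF2Bδ, which with eIF2Bβ form the regulatory part of the complex that binds phosphorylated eIF2, while eIF2Bγ and eIF2Bε carry the catalysis. When exchange slows, most initiation falls and mRNAs such as ATF4 are translated better, which is known as the integrated stress response (ISR). The comparison asks whether cells depleted of the α subunit and cells depleted of the δ subunit reach the same expression state.

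Values are the authors' log2 values after each library was centred on its own median, so that a level of 0 is the median gene of that library. RPF values were given for 11145 genes and total RNA values for 11947, of which 10836 had both. The files hold no read counts, so the depth behind a value is unknown. A gene counts as called where limma, with the week as a block, gave an adjusted p (Benjamini-Hochberg, two-sided, over all genes of the measure) under 0.1. In RPFs the week took 74.8% of the variance over the induced libraries and the line 10.0%, and in total RNA the shares were 43.2% and 25.9%. The total RNA library of induced shEIF2B1 replicate 2 stood apart: it lay 0.229 (root mean square, log2) from its group mean, against 0.081 to 0.143 for the other 7. In RPFs this distance was 0.139 to 0.380, highest in shEIF2B4 replicate 1. Of 13 colon epithelial markers 6 were measured, and KRT18, KRT8, KRT19 and EPCAM lay far above the median in RPFs (4.17 to 7.49), while CDX2, an intestinal transcription factor, lay near it (0.13 in shEIF2B1 and -0.16 in shEIF2B4) and CDH1 below it (-1.48 and -0.38). Of 14 markers of other cell types 4 were measured in RPFs (CD68, ACTA2, SNAP25 and GFAP), all below the median of both lines; CD68 was lower in shEIF2B1 by 0.46 in RPFs (limma adjusted p = 0.0918). In bulk lysates fewer cells of a kind and less RNA per cell cannot be told apart.

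Each target was lowest in its own line. EIF2B1 (GRCh38 chr12:123620406-123633766, minus strand) had centred RPF levels of 0.92, 0.41, 0.70 and 0.36 in the 4 induced shEIF2B1 libraries and of 1.82, 1.45, 1.73 and 1.61 in the induced shEIF2B4 libraries. The groups did not overlap, and the RPF level was 2.08-fold lower in shEIF2B1 (log2 difference -1.06, SE 0.11, limma adjusted p = 1.37e-06). In total RNA EIF2B1 was 2.20-fold lower (-1.14, SE 0.10, limma adjusted p = 2.92e-07). EIF2B4 (chr2:27364352-27370486, minus strand) had RPF levels of 1.02, 0.72, 1.11 and 0.64 in shEIF2B1 and of 0.36, -0.15, 0.32 and 0.34 in shEIF2B4. It was 1.57-fold higher in shEIF2B1 in RPFs (0.65, SE 0.12, limma adjusted p = 0.00224) and 1.66-fold higher in total RNA (0.73, SE 0.09, limma adjusted p = 4.15e-05), again without overlap. Part of both was there without DOX: uninduced EIF2B1 total RNA was lower in shEIF2B1 by 0.48 (limma adjusted p = 0.01), and uninduced EIF2B4 total RNA differed by 0.31 without passing the test (limma adjusted p = 0.112).

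The other subunits did not pass the test. EIF2B2 (β) differed by -0.07 in RPFs, EIF2B3 (γ) by -0.12 and EIF2B5 (ε) by -0.18, with limma adjusted p of 0.831, 0.687 and 0.523. In total RNA EIF2B3 differed by 0.04 and EIF2B5 by -0.03. For each of these the libraries of both lines overlapped, with SEs of 0.09 to 0.11.

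**Figure D1:**
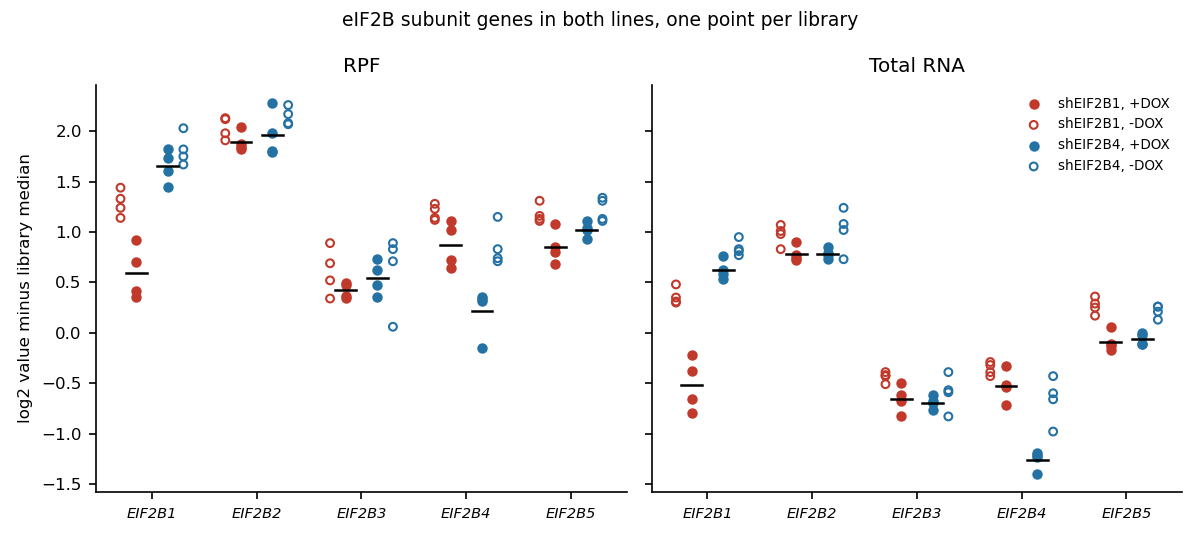
Centred log2 levels of the 5 eIF2B subunit genes in RPFs (left) and total RNA (right), 1 point per library, filled with DOX and open without, red for shEIF2B1 and blue for shEIF2B4; black lines are means of the 4 induced libraries. EIF2B1 is lowest in induced shEIF2B1 and EIF2B4 in induced shEIF2B4, and the other 3 subunits overlap between the induced lines.

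Over all genes, 327 of 11145 differed between the induced lines in RPFs, 2.93% of those tested, of which 209 (1.88%) were higher in shEIF2B1 and 118 (1.06%) higher in shEIF2B4. In total RNA 916 of 11947 differed (7.67%), 611 (5.11%) higher in shEIF2B1 and 305 (2.55%) higher in shEIF2B4. These RPF calls depend on the pairing of libraries by week: without the replicate block 0 genes were called in RPFs and 420 in total RNA. Without median centring 1456 RPF genes were called, 95.3% of them higher in shEIF2B1, since the induced shEIF2B4 RPF libraries have medians of 6.850 to 6.966 and those of shEIF2B1 6.999 to 7.066, which moves the median RPF difference of all genes from -0.006 to 0.120. Leaving out 1 week gave 162 to 274 RPF calls, fewest without week 1, and without week 4 there were 189, of which 88 were higher in shEIF2B1 and 101 higher in shEIF2B4. Among the genes in both tables, 105 were called higher in shEIF2B1 in both, 55 called higher in shEIF2B4 in both and 1 called in opposite directions. The shared calls are 53.3% of the RPF calls and 21.9% of the total RNA calls, and both measures come from the same lysates.

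**Figure D2:**
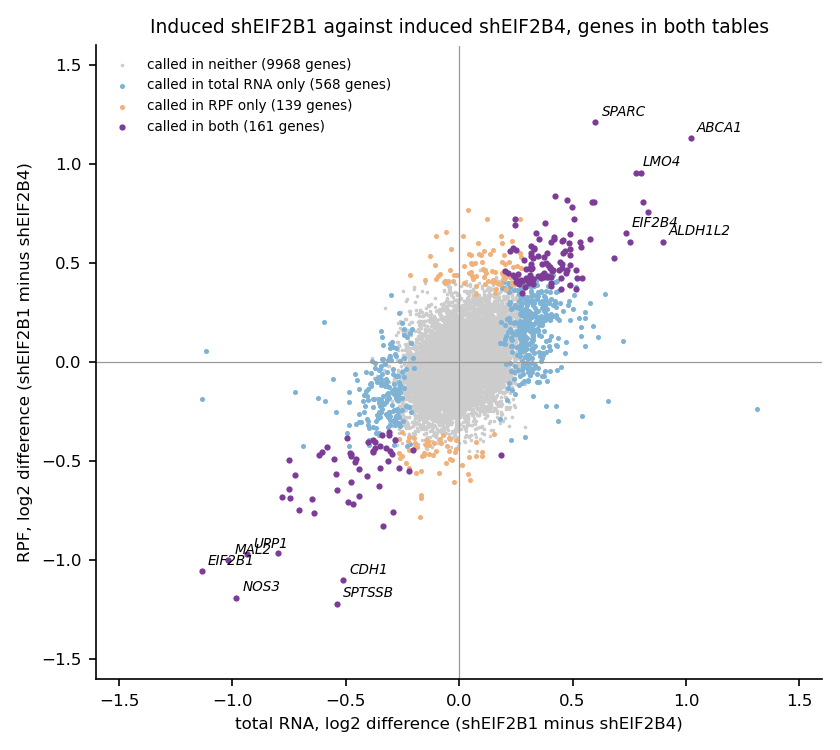
Log2 difference between the induced lines in RPFs (vertical) against total RNA (horizontal), 1 point per gene in both tables. EIF2B1, NOS3, UPP1 and MAL2 lie at the lower left and SPARC, ABCA1 and LMO4 at the upper right; 161 genes were called in both measures, 139 in RPFs only and 568 in total RNA only.

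Among the RPF genes furthest apart towards shEIF2B4 were CDH1, MAL2, MUC1 and MISP, which have known roles in epithelial cells. CDH1, which encodes E-cadherin, the adhesion protein of epithelial junctions (chr16:68737225-68835548, plus strand), had RPF levels of -1.04, -1.48, -1.30 and -2.11 in shEIF2B1 and of -0.11, -0.27, -0.33 and -0.83 in shEIF2B4. Every shEIF2B1 library lay below every shEIF2B4 library, and CDH1 was 2.15-fold lower in RPFs (-1.10, SE 0.12, limma adjusted p = 3.83e-06), 1.43-fold lower in total RNA (-0.51, SE 0.07, limma adjusted p = 0.000132) and 1.50-fold lower in TE, the RPF level relative to the total RNA of the same lysate (-0.59, SE 0.14, limma adjusted p = 0.0289). The TE libraries overlapped, and the TE call was lost without week 1, 3 or 4 (limma adjusted p = 0.109, 0.125 and 0.241). Uninduced CDH1 total RNA was lower in shEIF2B1 as well, by 0.34 (limma adjusted p = 0.0393). Induced shCTRL libraries had a CDH1 RPF level of -2.14 ± 0.46 (SD, n = 4), below the means of both depleted lines.

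MAL2, a protein of apical transport in polarised epithelia, had RPF levels of -1.65, -2.21, -1.95 and -2.01 in shEIF2B1 and of -0.78, -1.08, -0.63 and -1.34 in shEIF2B4. It was 2.00-fold lower in shEIF2B1 in RPFs (limma adjusted p = 3.24e-05) and 2.03-fold lower in total RNA (limma adjusted p = 1.17e-06), and its total RNA difference was -1.02 with DOX and -0.80 without (limma adjusted p = 0.000717). MUC1, a transmembrane mucin of the apical surface, was measured only in RPFs, at -2.49, -2.71, -2.81 and -3.39 in shEIF2B1 against -1.83, -1.50, -1.71 and -2.40 in shEIF2B4. Its groups stand 1.98-fold apart without overlap (limma adjusted p = 3.24e-05). Without DOX MUC1 RPFs were lower in shEIF2B1 by 0.50, which was not called (limma adjusted p = 0.82). MISP, an actin-binding protein of mitosis and of microvilli, and TMC4, a transmembrane channel-like protein, were 1.77-fold and 1.80-fold lower in RPFs, with overlapping groups (limma adjusted p = 0.00016 and 0.00153). The total RNA of MISP was lower by 0.34 with DOX (limma adjusted p = 0.035) and by 0.37 without (limma adjusted p = 0.026). EPCAM, an epithelial adhesion molecule, did not pass in RPFs (-0.32, limma adjusted p = 0.195) and was lower in total RNA by 0.40 (limma adjusted p = 0.00822), yet its uninduced total RNA difference was as large (-0.47, limma adjusted p = 0.0145). KRT8, KRT18 and KRT19, keratins of simple epithelia, differed in RPFs by -0.27, -0.16 and -0.15 and in total RNA by -0.03, 0.04 and -0.02, and were not called. CDX2 differed the other way, by 0.29 in RPFs and 0.12 in total RNA, and was not called either.

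The promoters of 4 of the RPF genes furthest apart towards shEIF2B4 are printed because they hold the E-box CAGGTG (or CACCTG on the other strand), the motif to which repressors of CDH1 such as SNAI and ZEB factors are known to bind. The windows run 5′ to 3′ on the gene's strand from 250 bases before to 50 after the RefSeq start in GRCh38.p14, with the E-box in capitals. They belong to MUC1 (chr1:155192866-155193165, minus strand), TMC4 (chr19:54173111-54173410, minus strand), MISP (chr19:750862-751161, plus strand) and UPP1 (chr7:48089004-48089303, plus strand).
MUC1: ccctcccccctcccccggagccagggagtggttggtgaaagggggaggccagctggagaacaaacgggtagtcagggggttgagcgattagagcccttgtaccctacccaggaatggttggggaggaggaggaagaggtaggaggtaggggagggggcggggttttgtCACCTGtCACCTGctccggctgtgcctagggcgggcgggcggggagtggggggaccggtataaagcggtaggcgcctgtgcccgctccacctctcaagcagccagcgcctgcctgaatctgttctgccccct
TMC4: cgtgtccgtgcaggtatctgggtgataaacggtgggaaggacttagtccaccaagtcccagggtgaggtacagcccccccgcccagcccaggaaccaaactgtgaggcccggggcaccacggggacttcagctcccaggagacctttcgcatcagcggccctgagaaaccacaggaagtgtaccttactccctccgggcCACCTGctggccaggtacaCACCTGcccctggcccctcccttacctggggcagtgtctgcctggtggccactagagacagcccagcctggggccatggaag
MISP: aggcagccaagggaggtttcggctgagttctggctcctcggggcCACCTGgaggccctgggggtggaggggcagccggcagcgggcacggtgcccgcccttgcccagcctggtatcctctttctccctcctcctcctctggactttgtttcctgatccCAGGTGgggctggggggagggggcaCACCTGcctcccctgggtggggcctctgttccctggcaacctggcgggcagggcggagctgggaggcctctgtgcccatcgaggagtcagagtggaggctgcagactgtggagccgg
UPP1: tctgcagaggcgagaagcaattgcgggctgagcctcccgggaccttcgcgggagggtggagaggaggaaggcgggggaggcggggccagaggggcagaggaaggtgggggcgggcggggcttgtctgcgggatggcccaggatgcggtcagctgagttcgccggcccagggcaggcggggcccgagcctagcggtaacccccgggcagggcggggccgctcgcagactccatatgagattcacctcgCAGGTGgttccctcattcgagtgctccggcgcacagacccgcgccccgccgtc
MUC1 has 2 E-boxes that begin 82 and 75 bases before the start, TMC4 has 2 at 51 and 32 bases before it, MISP has 3, of which the nearest begins 67 bases before the start, and UPP1 has 1 that begins 3 bases before it. Of the 10 RPF genes with the largest difference towards shEIF2B4, 8 have a window in the table and 5 of these hold the motif, and of the 10 towards shEIF2B1, 9 have a window and 1 (ABCA1) holds it. Over all genes called higher in shEIF2B4 in RPFs, 29 of the 89 with a window hold it (32.6%), against 30 of the 165 called higher in shEIF2B1 (18.2%), 17.9% of the tested genes with a window and 20.6% of all 27305 windows. In total RNA these shares were 25.2%, 16.4% and 18.2% for genes higher in shEIF2B4, higher in shEIF2B1 and tested. CDH1 and MAL2 had no window. Windows were matched by symbol, the shares are descriptions without a test, and a match of letters is not a bound site.

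The other large differences towards shEIF2B4 were in genes of varied function. SPTSSB, a small subunit of serine palmitoyltransferase in sphingolipid synthesis, had the largest RPF difference in that direction: levels of -3.50, -3.11, -3.21 and -3.55 in shEIF2B1 against -2.49, -1.86, -1.79 and -2.36 in shEIF2B4, 2.33-fold apart without overlap (-1.22, SE 0.13, limma adjusted p = 1.37e-06). Its total RNA was only 1.45-fold lower (limma adjusted p = 0.011), and it was among the 5 genes with the largest fall in TE (-0.68, limma adjusted p = 0.0397), a call that was lost without week 1 or 3 (limma adjusted p = 0.125 and 0.379). NOS3, the endothelial nitric oxide synthase, had RPF levels of -1.61, -2.57, -1.41 and -2.84 in shEIF2B1 and of -1.07, -0.96, -0.35 and -1.29 in shEIF2B4. It was 2.28-fold lower in RPFs (limma adjusted p = 1.93e-05) and 1.98-fold lower in total RNA (limma adjusted p = 2.33e-07), with an uninduced total RNA difference of -0.69 (limma adjusted p = 5.08e-05). Induced shCTRL had a NOS3 RPF level of -3.25 ± 0.45 (SD, n = 4).

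UPP1, uridine phosphorylase, had RPF levels of 0.79, 0.51, 0.86 and 0.48 in shEIF2B1, of 1.82, 1.30, 1.97 and 1.41 in shEIF2B4 and of -0.18 ± 0.30 in induced shCTRL (SD, n = 4). It was 1.96-fold lower in shEIF2B1 than in shEIF2B4 in RPFs (limma adjusted p = 3.83e-06) and 1.91-fold lower in total RNA (limma adjusted p = 7.38e-06), both without overlap. Uninduced UPP1 total RNA differed by -0.22 (limma adjusted p = 0.203), and the change of its difference with induction passed the test (-0.71, limma adjusted p = 0.0892). AREG, the EGF receptor ligand amphiregulin, was measured in total RNA only, at -2.90, -3.18, -2.94 and -2.91 in shEIF2B1 and -2.30, -2.02, -1.77 and -2.06 in shEIF2B4, 1.93-fold apart (limma adjusted p = 1.41e-06). Its total RNA difference was -0.95 with DOX and -0.47 without (limma adjusted p = 0.00303). LCN2, the iron-siderophore carrier lipocalin and an NF-κB target, had RPF levels of 3.68, 4.01, 3.37 and 4.26 in shEIF2B1 and of 4.48, 4.46, 4.59 and 4.55 in shEIF2B4, against 0.19 ± 0.44 in induced shCTRL. Each library of both depleted lines lay above the shCTRL mean, and LCN2 RPFs were 1.61-fold lower in shEIF2B1 than in shEIF2B4 (limma adjusted p = 0.00236 in RPFs and 0.00083 in total RNA). ADIRF, a factor of fat cell differentiation, was 1.95-fold lower in RPFs (limma adjusted p = 3.06e-05), and its total RNA difference was -0.80 with DOX (limma adjusted p = 2.12e-06) and -0.48 without (limma adjusted p = 0.0122). NT5DC4, a little-studied 5′-nucleotidase family gene, was 1.82-fold lower in total RNA (limma adjusted p = 2.92e-07), with an uninduced difference of -0.77 (limma adjusted p = 7.94e-05).

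Genes of the extracellular matrix and its receptors were among those higher in shEIF2B1 cells. SPARC, a secreted collagen-binding protein of the matrix (chr5:151661096-151687165, minus strand), had the largest RPF difference in this direction. Its RPF levels were 0.10, -0.04, 0.45 and -0.33 in shEIF2B1, -0.79, -1.31, -1.11 and -1.45 in shEIF2B4 and 0.25 ± 0.26 in induced shCTRL. Every shEIF2B4 library lay below every shEIF2B1 library and below the shCTRL mean. SPARC was 2.32-fold higher in shEIF2B1 than in shEIF2B4 in RPFs (1.21, SE 0.13, limma adjusted p = 1.37e-06), 1.52-fold in total RNA (limma adjusted p = 0.000191) and 1.53-fold in TE (0.61, SE 0.13, limma adjusted p = 0.018), the last lost without week 1 or 3 (limma adjusted p = 0.109 and 0.131). Uninduced SPARC total RNA was higher by 0.39 (limma adjusted p = 0.0267).

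LOX, the enzyme that cross-links collagen, had RPF levels of -1.71, -1.40, -1.82 and -1.24 in shEIF2B1 and of -2.52, -2.23, -2.32 and -2.32 in shEIF2B4, 1.75-fold apart without overlap (limma adjusted p = 0.000536), and 1.51-fold apart in total RNA (limma adjusted p = 0.000241). ITGB2, the β2 integrin, which pairs with α chains on leukocytes, was measured in RPFs only, at -0.95, -1.14, -0.99 and -1.71 against -2.29, -1.88, -2.10 and -2.23 (1.90-fold, limma adjusted p = 0.0002). Over all integrins, laminins and collagens, 7 of 30 were called higher in shEIF2B1 in RPFs and 0 higher in shEIF2B4, against 1.88% and 1.06% of all genes, and in total RNA 5 of 26 and 0, against 5.11% and 2.55%. The median RPF difference of these genes was 0.16 (-0.006 over all genes), with weekly medians of 0.03, 0.04, 0.26 and 0.26, and the median without induction was -0.13. The called RPF members were ITGB2, COL5A1 (0.60), COL8A2 (0.46), LAMB2 (0.43), COL13A1 (0.41), ITGA1 (0.37) and LAMB1 (0.35), and in total RNA ITGA7, LAMB1, LAMC1, COL6A3 and COL26A1 (0.20 to 0.37). ITGB2 and COL5A1 passed in RPFs whichever week was left out, LAMB2 was lost without week 3 or 4, COL8A2 and COL13A1 passed only without week 2, ITGA1 only without week 3, and LAMB1 in none of these fits (limma adjusted p = 0.135 to 0.357). In total RNA ITGA7 passed in each of them and the other 4 were lost without week 3 and without week 4. Over all lists, 9 of 27 called members in RPFs, 18 of 47 in total RNA and 0 of 6 in TE passed whichever week was left out. LAMB1, LAMB2 and LAMC1 encode laminin chains and ITGA7 a chain of a laminin receptor. ACTA2, a smooth-muscle actin kept as a marker of other cell types, was higher in total RNA by 0.37 (limma adjusted p = 0.0107), and its part in this pattern was not tested.

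The other genes furthest apart towards shEIF2B1 were of varied function. ABCA1, the exporter of cellular cholesterol, had RPF levels of -1.28, -0.87, -0.28 and -1.15 in shEIF2B1 and of -2.69, -1.75, -1.58 and -2.08 in shEIF2B4. It was 2.19-fold higher in RPFs (limma adjusted p = 4.7e-06) and 2.03-fold higher in total RNA (limma adjusted p = 2.33e-07), without overlap in either, and induced shCTRL had an RPF level of -2.24 ± 0.61 (SD, n = 4). Its total RNA difference was 1.02 with DOX and 0.42 without (limma adjusted p = 0.0269). LMO4, a LIM-domain transcription cofactor, had RPF levels of 0.84, 0.64, 0.81 and 0.72 in shEIF2B1 and of 0.14, -0.10, -0.34 and -0.53 in shEIF2B4, 1.94-fold apart (limma adjusted p = 2.35e-05), with an uninduced RPF difference of -0.02 (limma adjusted p = 0.984). In total RNA LMO4 was higher by 0.78 with DOX (limma adjusted p = 2.23e-05) and by 0.30 without, the latter not called (limma adjusted p = 0.162). PLPPR4, a neuronal phospholipid phosphatase-related membrane protein, had RPF levels of -1.30, -1.33, -1.39 and -0.87 in shEIF2B1 and of -2.18, -2.31, -2.16 and -2.07 in shEIF2B4, 1.94-fold apart (limma adjusted p = 3.54e-05) and 1.75-fold apart in total RNA (limma adjusted p = 3.41e-05). Its total RNA difference was 0.08 without induction (limma adjusted p = 0.665) and changed with induction by 0.72 (limma adjusted p = 0.0892).

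SESN3, a stress-induced regulator of mTORC1, was 1.78-fold higher in total RNA (1.98, 1.74, 2.20 and 1.84 against 1.50, 1.01, 0.91 and 1.00, limma adjusted p = 4.67e-05). CACNA1S, a calcium channel subunit of muscle, was 1.79-fold higher in RPFs (limma adjusted p = 0.00016), KANK4, a cytoskeletal adaptor, 1.77-fold (limma adjusted p = 0.00193), TREM2, a lipid-sensing receptor of myeloid cells, 1.75-fold (limma adjusted p = 0.00126) and AZGP1, a secreted lipid-mobilising factor, 1.75-fold (limma adjusted p = 0.00146). In those 4 the RPF libraries of both lines overlapped. In total RNA TREM2 was higher by 0.59 with DOX (limma adjusted p = 0.000124) and by 0.31 without (limma adjusted p = 0.0911), and AZGP1 was higher by 0.81 with DOX and by 0.34 without (limma adjusted p = 1.17e-06 and 0.0128).

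Of the 20 genes furthest apart in total RNA, 7 are uncertain as gene-level differences, most of them because they share sequence with a copy or overlap another gene and their reads can be split differently. POC1B-GALNT4, a readthrough gene, was 2.49-fold higher in shEIF2B1 and GALNT4, at chr12:89519408-89524806 within the same locus, was 2.42-fold lower, while the RPF value of POC1B-GALNT4 differed by -0.24 (limma adjusted p = 0.432). RGPD2 and RGPD6, members of a duplicated family on chromosome 2, were lower in total RNA by 1.12 and 1.13 and also without induction (by 1.02 and 1.50), with RPF differences of 0.06 and -0.19. RIMBP3 and GTF2IRD2B, of families with near-identical copies, were higher by 1.77 and 0.76, with weekly differences of 0.29 to 3.33 and 0.33 to 1.52, and GTF2IRD2B was lower by 0.86 without induction (limma adjusted p = 0.0267). RP5-1148A21.4, known by a clone name, was lower by 2.09, over a weekly range of -3.52 to -0.74.

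Of 22 measured ISR transcription factors and effectors, 0 were called higher in shEIF2B1 and 1 lower in RPFs (4.55%), against 1.88% and 1.06% of all genes. In total RNA 3 were called higher (13.6%) and 2 lower (9.09%), against 5.11% and 2.55%, and the list medians were -0.05 and -0.04. ATF4, whose translation the ISR raises, differed by 0.19 in RPFs (SE 0.11, limma adjusted p = 0.47) and 0.09 in total RNA (limma adjusted p = 0.673). DDIT3, the pro-apoptotic factor CHOP, differed by -0.33 in RPFs and -0.19 in total RNA (limma adjusted p = 0.152 and 0.26), and the pseudokinase gene TRIB3 by -0.02 and -0.03.

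The called ISR genes lay on both sides. ATF5, a factor downstream of ATF4, had total RNA levels of -0.80, -0.20, -0.30 and -0.57 in shEIF2B1 and of -1.08, -0.87, -0.90 and -0.83 in shEIF2B4, 1.36-fold apart without overlap (limma adjusted p = 0.00772), while its RPF levels differed by -0.02 (limma adjusted p = 0.963). NUPR1, a stress-induced chromatin protein, and INHBE, an activin subunit, were higher in total RNA by 0.55 and 0.43 (limma adjusted p = 0.000833 and 0.0133). ATF3, a stress-induced repressor, was lower in total RNA by 0.28 (limma adjusted p = 0.0872, passing only without week 2 when 1 week was left out), and NDRG1, a stress and hypoxia gene, was lower in RPFs by 0.53 and in total RNA by 0.35 (limma adjusted p = 0.00787 and 0.0424).

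PPP1R15A, the GADD34 cofactor that dephosphorylates eIF2α, had RPF levels of 0.42, 0.20, 0.31 and 0.15 in shEIF2B1 and of 1.11, 0.65, 1.12 and 0.61 in shEIF2B4, 1.52-fold lower without overlap (limma adjusted p = 0.00334). Its total RNA differed by -0.02 (limma adjusted p = 0.936), and its TE was lower by 0.59 (limma adjusted p = 0.0245), which did not pass without week 1 or 3 (limma adjusted p = 0.402 and 0.144). In RPFs EIF2S1, which encodes eIF2α itself, was lower in shEIF2B1 by 0.38 (limma adjusted p = 0.0692), and EIF2AK1, the heme-regulated eIF2α kinase, was higher by 0.39 (limma adjusted p = 0.0504). EIF2S1 did not pass when any of the 4 weeks was left out (limma adjusted p = 0.135 to 0.216), and EIF2AK1 passed only without week 3. These are 3 of the 10 genes for eIF2 subunits, kinases and phosphatase cofactors (30%, against 2.93% of all genes). In total RNA 0 of the 10 were called by limma, against 7.67% of all genes.

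Among enzymes of serine, one-carbon, asparagine and proline synthesis, many of them ATF4 targets, 1 of 15 was called in RPFs (6.67%) and 2 of 16 in total RNA (12.5%), all higher in shEIF2B1, against 1.88% and 5.11% of all genes. ALDH1L2, the mitochondrial formyl-tetrahydrofolate dehydrogenase, had total RNA levels of -0.89, -0.89, -0.54 and -0.84 in shEIF2B1, of -1.93, -1.74, -1.52 and -1.56 in shEIF2B4 and of -1.92 ± 0.19 in induced shCTRL. It was 1.86-fold higher in total RNA (limma adjusted p = 1.75e-06) and 1.53-fold higher in RPFs (limma adjusted p = 0.00577), and its uninduced total RNA was higher by 0.40 (limma adjusted p = 0.0153). The other was CBS, of transsulfuration (0.42, limma adjusted p = 0.00725). Of 12 amino acid transporters and 24 ER chaperones 0 were called in either measure, against 2.93% of all genes in RPFs and 7.67% in total RNA. Of 20 cytosolic aminoacyl-tRNA synthetases QARS1 and VARS1 were higher in total RNA by 0.31 (10% of the list, against 5.11% of all genes). In RPFs 0 of them were called, against 2.93% of all genes. QARS1 was lost without week 1 or 3 (limma adjusted p = 0.169 and 0.233) and VARS1 without week 2 or 3 (limma adjusted p = 0.187 and 0.361).

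Inflammatory and interferon genes differed in both directions. In the NF-κB list, RPFs of LCN2 and of the protease inhibitor SLPI (-0.45, limma adjusted p = 0.0329) were lower in shEIF2B1 and those of SAA1, an acute-phase protein, higher (0.39, limma adjusted p = 0.0999), 3 of 16 measured (18.8%, against 2.93% of all genes). SLPI was lost without week 1 or 2 and SAA1 passed only without week 3. In total RNA LCN2, SLPI and IL32 were lower and BIRC3 higher, 4 of 18 (22.2%, against 7.67%), of which IL32 was lost without week 1 and SLPI without week 3. Of 27 interferon-stimulated genes 7 were higher in total RNA (25.9% of the list, against 5.11% of all genes) and 1, ISG20, was lower by 0.27, and the list's median was 0.14. The 7 were IFITM1 (0.48), IFI6 (0.32), MX2 (0.31), IFITM2 (0.30), IFITM3 (0.28), IFIT3 (0.24) and IRF9 (0.23), of which the IFITM genes are near-identical copies whose reads may have been shared. IFITM1 and MX2 passed whichever week was left out, IFI6 was lost without week 3 or 4, IRF9 passed only without week 2 or 4, IFIT3 only without week 2, IFITM2 only without week 1, and IFITM3 in none of these fits (limma adjusted p = 0.152 to 0.191). IFIT3 differed as much without DOX (0.26, limma adjusted p = 0.0918). In RPFs 0 of 24 interferon-stimulated genes were called by limma, against 2.93% of all genes.

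Signalling genes were called in both directions. DUSP5, a phosphatase that switches off ERK, and PHLDA1, both immediate early genes, were lower in shEIF2B1 in RPFs by 0.43 and 0.35 and in total RNA by 0.37 and 0.31. They are 2 of 19 AP-1 and immediate early genes in RPFs (10.5%, against 2.93% of all genes) and 2 of 20 in total RNA (10%, against 7.67%). In RPFs DUSP5 passed in none of the fits without 1 week (limma adjusted p = 0.131 to 0.272) and PHLDA1 only without week 3. In total RNA DUSP5 passed only without week 1 or 2, and PHLDA1 only without week 4. Of 16 WNT targets 0 were called in RPFs, against 2.93% of all genes. In total RNA NOTUM, CD44 and NKD1 were higher (0.29 to 0.30) and DKK1 and EPHB3 lower (by 0.29 and 0.23), which is 18.8% and 12.5% of the list against 5.11% and 2.55% of all genes. Each of these 5 calls was lost without week 3. Among 29 genes of cholesterol and fatty acid synthesis and uptake 3 were called in total RNA (10.3%, against 7.67% of all genes) and 1 in RPFs (3.45%, against 2.93%). In total RNA they included MSMO1, an enzyme of sterol synthesis, which was lower by 0.48, and SREBF1, a transcription factor of lipid synthesis, which was higher by 0.38. That list had a median of -0.12 for RPFs and of -0.10 for total RNA, below 0 in 4 of 4 weeks for both. Without DOX its medians were 0.01 and -0.03, and its weekly total RNA medians were also below 0 (-0.10, -0.01, -0.10 and -0.02). Of 34 genes of G1/S and DNA replication ORC6 was called in RPFs (-0.42) and PCNA in total RNA (-0.30). That is 2.94% of the list in each, against 2.93% and 7.67% of all genes. Both calls were lost without week 1 and without week 3 (limma adjusted p = 0.427 and 0.231 for ORC6, 0.157 and 0.332 for PCNA). Of 7 CDK inhibitors 0 were called in RPFs, against 2.93% of all genes. CDKN2B, which encodes p15, was called in total RNA (-0.49, 14.3% of the list, against 7.67% of all genes). Of 28 mitosis genes, 21 hnRNP genes and 36 proteasome genes in RPFs 0 were called by limma, against 2.93% of all genes. Among genes of cell death DIABLO and BMF were higher in total RNA (0.29 and 0.25), 2 of 29 measured (6.9%, against 7.67% of all genes). In RPFs 0 of 25 were called, against 2.93% of all genes. In TE 1 of 25 was called (4%, against 0.443%): BCL2L11, the BH3-only protein BIM, was higher (0.55, limma adjusted p = 0.0819). BCL2L11 passed in none of the fits without 1 week (limma adjusted p = 0.125 to 0.331). DIABLO passed only without week 2, and BMF only without week 2 or 4. Among mitochondrial ribosomal protein genes MRPL46 was lower in RPFs by 0.49, 1 of 75 (1.33%), and MRPS6 in total RNA by 0.29, 1 of 78 (1.28%). Among oxidative phosphorylation genes NDUFB1 was higher in RPFs by 0.40 and NDUFC2 lower in total RNA by 0.54, 1 of 76 each (1.32%). These shares are below those of all genes, 2.93% in RPFs and 7.67% in total RNA. Of these calls only that of NDUFC2 passed whichever week was left out. HNRNPD and HNRNPA3 differed in RPFs by -0.25 and -0.16, with limma adjusted p of 0.341 and 0.541.

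Cytosolic ribosomal protein genes lay lower in RPFs and in TE in shEIF2B1 but not in total RNA. Their median difference was -0.19 over 81 genes in RPFs, 0.08 over 82 in total RNA and -0.25 over 80 in TE, against -0.006, 0.005 and -0.007 over all genes. The weekly TE medians were -0.14, -0.30, -0.42 and -0.17, all below 0, and the uninduced median was -0.06. The RPF median rested largely on week 3, where it was -0.55, against -0.11, -0.06 and -0.01 in the other weeks, and it was -0.06 without week 3 and also -0.06 without centring, where the median of all genes was 0.120. Few members passed on their own. In RPFs they were RPL37A and RPL17 (-0.60 and -0.45), 2.47% of the list against 1.06% of all genes called lower. In TE they were RPL37A, RPL17 and RPL28 (-0.64, -0.56 and -0.54), 3.75% of the list against 0.194% of all genes called lower. RPL37A had RPF levels of 5.52, 5.22, 4.71 and 5.42 in shEIF2B1 and of 6.59, 5.40, 5.89 and 5.39 in shEIF2B4, which overlap, and its call was lost without replicate 1 or replicate 3 (limma adjusted p = 0.34 and 0.18). Ribosomal protein genes have many processed pseudogenes, so that their reads may be shared with copies.

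**Figure D3:**
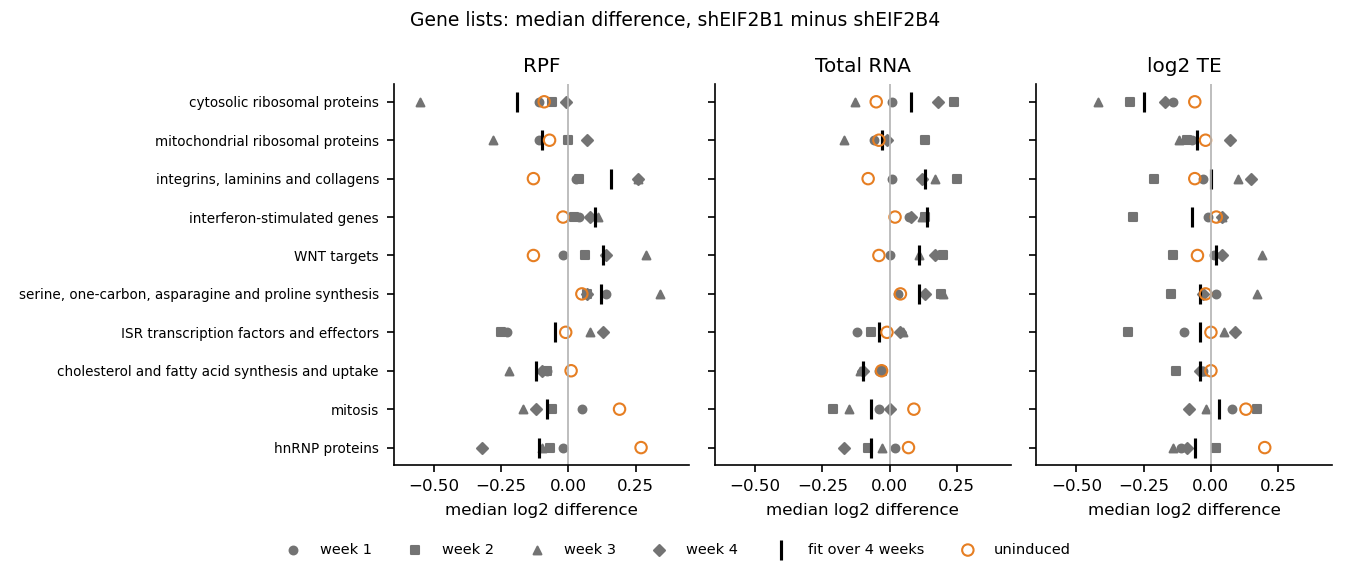
Median log2 difference (shEIF2B1 minus shEIF2B4) of 10 gene lists in RPFs, total RNA and TE; grey symbols are the medians of the 4 weeks, black bars the median of the fitted differences and open circles the uninduced lines. Cytosolic ribosomal proteins lie below 0 in all 4 weeks in TE, and integrins, laminins and collagens lie above 0 in RPFs and total RNA with uninduced medians below 0.

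In TE 48 of 10836 genes differed (0.443%), 27 (0.249%) higher in shEIF2B1 and 21 (0.194%) higher in shEIF2B4, and 0 were called without the replicate block. Without DOX 3 genes were called in TE (0.0277%), all 3 higher in shEIF2B1. The largest differences towards shEIF2B1 were those of RGPD2 and RGPD6 (1.18 and 0.95) and of CD8B (0.80), in which the total RNA was lower and the RPF difference was small (0.06, -0.19 and 0.20). RGPD2 and RGPD6 were also called in TE without DOX (1.12 and 1.77, limma adjusted p = 0.0966 each), and the total RNA of CD8B was lower by 0.60 with DOX and by 0.41 without (limma adjusted p = 7.37e-06 and 0.0577). Next came those of DENND6A, a factor of endosome recycling (0.74), and DMPK, a muscle kinase (0.73), in which the RPFs were higher and the total RNA was not called. RGPD2 and RGPD6 passed in TE whichever week was left out. CD8B was lost without week 1, 3 or 4 (limma adjusted p = 0.187, 0.159 and 0.166). DENND6A was lost without week 3 (limma adjusted p = 0.303) and DMPK without week 1 or 3 (limma adjusted p = 0.25 and 0.238). The weekly TE differences of DENND6A ran from 0.25 to 1.61 and those of DMPK from 0.02 to 1.33. Towards shEIF2B4 the largest TE differences were those of the readthrough genes POC1B-GALNT4 and CHURC1-FNTB (-1.55 and -0.73) and of SPTSSB. Then came BBS12, a chaperonin-like gene of cilia (-0.67), and CHRND, an acetylcholine receptor subunit (-0.65). In POC1B-GALNT4, CHURC1-FNTB and BBS12 the total RNA was higher in shEIF2B1 and the RPFs were not called. For CHURC1-FNTB it was higher by 0.44 with DOX and 0.53 without (limma adjusted p = 0.000349 and 0.0361). For BBS12 it was higher by 0.29 and 0.26 (limma adjusted p = 0.0224 and 0.058). TE calls of CHURC1-FNTB and BBS12 were lost without week 3 and that of CHRND without week 1 or 2. Most of the genes with large RPF differences were not called in TE. ABCA1 (0.11), LMO4 (0.18), MAL2 (0.02), UPP1 (-0.03) and NOS3 (-0.21) had limma adjusted p of 0.786 to 0.993, with SEs of 0.13 to 0.15. MISP (-0.49), CACNA1S (0.42) and KANK4 (0.34) differed more without passing (limma adjusted p = 0.167, 0.228 and 0.45). MUC1, TMC4 and ITGB2 had no total RNA value and so no TE.

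How much of the difference was there before DOX was read from the uninduced libraries. In RPFs 0 of 11145 genes were called between the uninduced lines by limma (459 at an unadjusted p under 0.05). That unadjusted count was 2692 without week 3, 357 without week 1, 180 without week 2 and 108 without week 4, with 0 called each time. The uninduced RPF library of shEIF2B4 replicate 1 lay 0.521 (root mean square, log2) from its group mean. Of the induced RPF calls 77.1% had the same sign without DOX, against 55.3% of all genes. In total RNA 275 genes were called without DOX (2.3%), 115 (0.963%) higher in shEIF2B1 and 160 (1.34%) higher in shEIF2B4, with 143 of them also called with DOX in the same direction, which is 52.0% of the uninduced and 15.6% of the induced calls. This uninduced count was 1140 without week 3, 54 without week 4, 112 without week 1 and 127 without week 2. Over the induced calls the difference had a median size of 0.47 for RPFs and of 0.32 for total RNA, and the uninduced difference in the same direction had medians of 0.13 and 0.09. A change of the difference with induction passed for 0 genes in RPFs (651 at an unadjusted p under 0.05) and for 7 in total RNA (0.0586%): PLPPR4, GTF2IRD2B, SPATA20 and LDLRAD1 towards shEIF2B1 (0.0335%) and UPP1, NT5E and MEF2A towards shEIF2B4 (0.0251%). Without week 3, without week 4, without centring or after quantile normalisation 0 genes passed for this change in total RNA. In RPFs the limma count for this change at an unadjusted p under 0.05 was 1764 without week 3, and 415, 296 and 309 without weeks 1, 2 and 4. NT5E, the ecto-enzyme CD73 that makes adenosine, had total RNA levels of 0.17, -0.05, -0.04 and 0.16 in shEIF2B1 and of 0.83, 0.59, 0.95 and 0.86 in shEIF2B4, 1.68-fold apart, with an uninduced difference of -0.12. MEF2A, a transcription factor of muscle and neurons, was at 0.80, 0.71, 0.97 and 0.95 against 1.36, 1.52, 1.49 and 1.53, with an uninduced difference of 0.09. NT5E, MEF2A, SPATA20 and LDLRAD1 were named after their values were seen.

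How far the induced difference resembled the uninduced one varied with the level of the gene. Over genes split into eighths by mean level, the correlation across genes of the induced with the uninduced difference was 0.66 in the lowest eighth and -0.20 in the highest in total RNA, and 0.52 and -0.05 in RPFs. Of the lowest eighth 23.3% was called between the induced lines in total RNA and 6.89% in RPFs, against 3.95% and 1.72% of the highest. The difference of shEIF2B4 from shCTRL kept its pattern through induction in the same way (0.64 in total RNA and 0.39 in RPFs in the lowest eighth), and that of shEIF2B1 from shCTRL less so (0.18 and 0.10). These are correlations across genes, which are not independent replicates, and each pair shares no library. With 1 hairpin and 1 pool per target, the subunit, the hairpin, the pool and the handling of its columns cannot be told apart as sources of a difference.

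**Figure D4:**
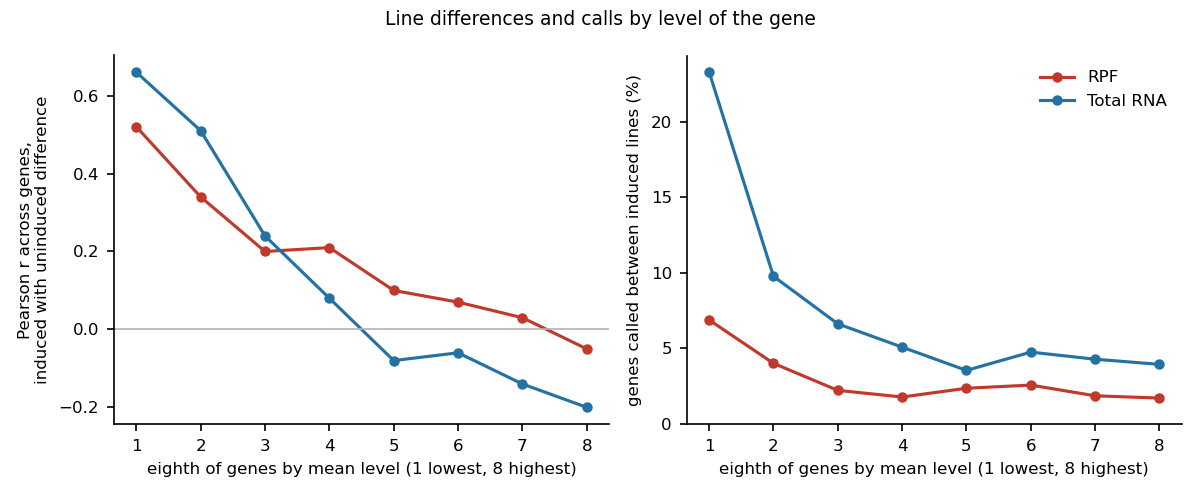
Left, Pearson correlation across genes of the induced with the uninduced difference between the lines, and right, the percentage of genes called between the induced lines, for 8 groups of genes ordered by mean level, in RPFs (red) and total RNA (blue). Both are higher in the lowest than in the highest group, 0.66 against -0.20 and 23.3% against 3.95% in total RNA.

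Coding sequence composition followed the differences differently from week to week. Across 11530 genes in total RNA the Spearman correlation of the induced difference with GC at codon position 3 (GC3) was 0.26, but it was 0.57 in week 2 and -0.11, 0.06 and -0.08 in weeks 1, 3 and 4, and -0.06 when week 2, which holds the library that stood apart, was left out. In RPFs it was 0.04 over 10785 genes, and -0.25, -0.06, 0.26 and 0.07 by week. With the share of G and A bases the correlation was -0.10 for RPFs and -0.06 for total RNA, and with CDS length 0.22 and 0.17, again with both signs among the weeks. The correlation with length in RPFs was -0.02 when week 3 was left out. Without induction the correlations with GC3 were -0.37 in RPFs and -0.50 in total RNA. By week they were -0.59, -0.55, 0.69 and -0.09 in RPFs, with week 3 of opposite sign, and -0.27, -0.35, -0.49 and -0.05 in total RNA. The median CDS was 1782 bases in genes called higher in shEIF2B1 in RPFs, 1026 in those called higher in shEIF2B4 and 1311 over all genes, and in total RNA 1488, 984 and 1299. Genes are not replicates, and no test was made of these values.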

How the data were processed

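Ribosome-protected fragments (28 to 33 nt, mapped to coding sequences) and total cytoplasmic RNA were measured in 24 lysates of 3 SW480 lines. The deposited values are log2 values that the authors made with DESeq2 normalisation, separately for RPFs and total RNA, after cutadapt 1.18, Bowtie2, SAMtools 1.9 and RSEM with GENCODE v38, in R 4.3.1 per the labels and the study's methods. The study names DESeq2's regularised logarithm, which shrinks differences of low genes, for values that it plots, and whether the deposited values were made with it was not tested. No counts were analysed here. No column of per-sample values was left unassigned to a sample.

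Each library was centred on its median. Induced shEIF2B1 was compared with induced shEIF2B4 with limma 3.58.1 (R 4.3.3; lmFit, eBayes with trend) with the replicate number as a block, on 8 libraries per measure. P-values were adjusted by Benjamini-Hochberg over all genes. TE is the centred RPF value minus the centred total RNA value. The replicate numbers mark separate weeks per the series' design text, and replicate 3 was joined from 2 sequencing runs. Deviations from the line means were correlated across genes between libraries of both lines. In the same week Pearson r over weeks 1 to 4 was 0.831, 0.514, 0.097 and 0.758 for RPFs and 0.147, 0.257, 0.092 and 0.211 for total RNA. Between different weeks it ran from -0.773 to 0.576 for RPFs and from -0.295 to 0.138 for total RNA. The same-week values of weeks 2 and 3 in RPFs and of week 3 in total RNA lay within these ranges. The fit was tested on simulated data.

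Named genes are the 10 largest differences per direction in RPFs and in total RNA and the 5 largest in TE, among called genes with the same sign in 4 of 4 weeks, together with the eIF2B subunits, ATF3, ATF4, ATF5, DDIT3, PPP1R15A, TRIB3, HNRNPD, HNRNPA3 and the called members of the gene lists. Some genes that this rule names are not reported here. The members and lists were chosen with earlier results of these data known. Gene positions are from GENCODE v29 (GRCh38) and promoters from RefSeq (GRCh38.p14). CDS composition matched 96.8% of RPF and 96.5% of total RNA genes, fewer of them with the same transcript version (31.4% and 32.9%). Alternatives were no block, no centring, quantile normalisation, no trend, low genes left out, all 24 libraries, a threshold of 0.05 and each replicate left out.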

Additional observations from a re-analysis of the deposited data

Results flagged for a closer look

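In 14 of 260 groups of 4 induced libraries checked, 1 library lay far from the other 3 by Dixon's ratio (the gap to the nearest library over the range, above its critical value), and chance flags about 1 in 20 groups. In shEIF2B1 total RNA these were AREG (0.840), PHLDA1 (0.860) and EPHB3 (0.852) in replicate 2, the library that stood apart, ALDH1L2 (0.862) and GALNT4 (0.836) in replicate 3, IFI6 (0.832) in replicate 1 and DUSP5 (0.863) in replicate 4. DUSP5 was flagged in replicate 4 in RPFs too (0.878). In shEIF2B4 they were EIF2B4 RPFs in replicate 2 (0.926), COL5A1 RPFs in replicate 1 (0.872), and in total RNA IFIT3 (0.845) and DIABLO (0.917) in replicate 1 and DKK1 (0.849) and RGPD6 (0.864) in replicate 3.

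The total RNA difference between the lines changed with induction, by limma's interaction term at an adjusted p of 0.0892 each, by 0.66 for SPATA20, 0.72 for PLPPR4, 0.65 for LDLRAD1 and 1.62 for GTF2IRD2B, and by -0.70 for MEF2A, -0.62 for NT5E and -0.71 for UPP1. GTF2IRD2B has near-identical copies.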

How the results depend on the processing

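Of 1258 outcomes of 125 called values of named genes under the alternatives, 893 kept direction and call, 365 kept direction without passing and 0 reversed. That 0 reversed was largely fixed in advance. Genes with the largest differences were chosen for the same sign in 4 of 4 weeks, so leaving out a week could not reverse them. Dropping the block, the trend or low genes leaves the difference itself unchanged. Without the replicate block 40 kept their call and 85 did not, and the counts fell to 0 in RPFs, 420 in total RNA, 0 in TE, 146 between uninduced lines and 3 for the change with induction. Without centring 1456 RPF genes and 208 TE genes were called and 0 for the change in total RNA, also 0 after quantile normalisation, under which 700 total RNA genes were called, 393 higher in shEIF2B1 and 307 higher in shEIF2B4, and without centring 1033, 790 and 243. With the lowest 25% of genes left out, counts were 126 in RPFs, 261 in total RNA, 11 in TE and 3 between uninduced lines in total RNA. With the lowest 50% left out, chosen after seeing the data, they were 87, 114 and 13, and 0 between uninduced lines and for the change. At a threshold of 0.05, 168 RPF and 517 total RNA genes were called. With all 24 libraries 24 genes were called in TE, and 24 for the change, the latter fit chosen after seeing the data. Without the trend 91 genes were called between uninduced lines. Leaving out 1 replicate gave 162 to 274 RPF calls, 425 (without replicate 3) to 1034 total RNA calls, 15 to 52 TE calls, 54 to 1140 between uninduced lines in total RNA and 0 to 4 for the change. Except for the block and the leaving out of genes or samples, the cause was not tested. The depth behind the values is unknown, and calls are most frequent among low genes.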
